A study of Mus musculus with 8 samples.

Results

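The genes described are the mouse intermediate filament and lamin genes Nes, Vim, Synm, Nefl, Nefm, Ina, Gfap, Lmna, Lmnb1 and Lmnb2, chosen by symbol in single-cell transcriptomes of the SN4741 line. All 10 symbols were found among the 31053 genes of the count matrices. SN4741, whose genotype the labels give as WT, is an immortalized and transgenic neural precursor line of mouse substantia nigra origin, described by the study as 1 clone, in which the tyrosine hydroxylase promoter drives a temperature-sensitive viral T antigen, and as polyploid with an unstable karyotype. The 4 libraries of undifferentiated cells came from cultures at 37 °C in medium with 10% fetal bovine serum, and the 4 libraries of differentiated cells from cultures moved 24 h after passage to 39 °C in 0.5% serum for 48 h, so temperature and serum cannot be told apart. The study asked whether the line is a suitable stand-in for midbrain dopaminergic neurons, and whether the shift to 39 °C takes the cells toward such a state.

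Intermediate filaments are polymers that give cells and nuclei mechanical strength, and their subunit composition changes as neural cells mature. Nestin (Nes) is typical of neural stem cells and polymerizes together with vimentin (Vim), the main filament of mesenchymal and precursor cells. Synemin (Synm) is a large filament protein that links such polymers to other structures, neurofilament light and medium chains (Nefl, Nefm) and alpha-internexin (Ina) build the axonal network of neurons, and Gfap is the filament of astrocytes. Lamins line the inner nuclear membrane: Lmna gives lamins A and C by splicing, while Lmnb1 and Lmnb2 give the B-type lamins. Mki67 encodes the Ki-67 protein of dividing cells and was used here to set cells with and without its transcripts apart.

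In GENCODE M21 (GRCm38, the assembly also called mm10), Nes lies at chr3:87971078-87980451 on the forward strand and Lmna on the same chromosome at chr3:88480147-88509956 on the reverse strand. Vim lies at chr2:13573927-13582826 (forward), Synm at chr7:67730160-67759742 (reverse) and Lmnb2 at chr10:80901203-80918245 (reverse). Nefl (chr14:68083863-68089095, forward) lies within the span of Nefm (chr14:68082590-68124846, reverse). Ina is at chr19:47014698-47025327 (forward) and Gfap at chr11:102887336-102900912 (reverse). None of the 10 overlapped another counted gene on its own strand. Counts were made per gene, so transcripts of lamin A and lamin C are not separated.

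Promoter sequence is shown for Nes and Lmnb2, the members lower at 39 °C whose RefSeq start-site windows (GRCm38.p6) lay at the annotated gene start, with any bases in annotated exons left out. The Nes window covers chr3:87970843-87971077 on the forward strand and the Lmnb2 window chr10:80918246-80918495 on the reverse strand. Capitals mark GC boxes (GGGCGG on either strand, with no overlap with another match).
Nes: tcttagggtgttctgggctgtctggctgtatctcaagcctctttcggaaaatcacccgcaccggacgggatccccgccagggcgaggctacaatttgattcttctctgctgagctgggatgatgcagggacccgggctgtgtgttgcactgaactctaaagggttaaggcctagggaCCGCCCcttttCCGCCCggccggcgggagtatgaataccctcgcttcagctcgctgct
Lmnb2: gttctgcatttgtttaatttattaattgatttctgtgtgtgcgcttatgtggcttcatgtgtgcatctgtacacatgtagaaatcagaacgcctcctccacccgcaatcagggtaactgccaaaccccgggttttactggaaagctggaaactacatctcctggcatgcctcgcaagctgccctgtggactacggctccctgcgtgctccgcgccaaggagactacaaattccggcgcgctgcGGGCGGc
The Nes window holds 2 GC boxes and the Lmnb2 window 1, and 32.7% of all 32851 RefSeq windows of 250 bases hold at least 1. Neither window holds the letters of a CCAAT box (CCAAT, in 33.8% of windows), a TATA box (TATAAA, 12.4%), the cell cycle element TTTGAA or TTCGAA (17.1%), or the E2F motifs TTTCGCGC, TTTGGCGC, TTTCCCGC and TTTGCCGC (1.86%), on either strand.

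The 8 libraries gave 18351 cells after filtering, 8550 at 37 °C and 9801 at 39 °C, with 985 to 3494 cells and 17166686 to 29633818 unique molecular identifiers (UMIs, counts of captured molecules) per library. Cells with an Mki67 UMI made up 51.1 to 59.4% of each 37 °C library and 5.44 to 7.41% of each 39 °C library. These cells were deeper, with library medians of 11448 to 17162 UMIs against 8296 to 13059 in the other cells at 37 °C. At 39 °C the medians averaged 12021 and 10350 UMIs. Of the markers for the labelled neural precursor type, Sox2 was at 55.4 ± 2.23 UMIs per 1000000 library UMIs (CPM; mean ± SD, n = 4) at 37 °C and 76.5 ± 3.25 CPM at 39 °C, whereas Hes5 had 0 UMIs, Sox1 1, Pax6 3 and Fabp7 6 in all libraries together. Msi1 and Nes itself complete this list of 7, which summed to 486 to 595 CPM at 37 °C and 178 to 196 CPM at 39 °C. Of the 3 tested, Sox2 and Msi1 were higher at 39 °C and Nes lower, at an adjusted p under 0.05 (31.5% and 30.5% of all genes tested). The 7 mesenchymal markers, Col1a1 among them, summed to 1752 to 1819 CPM at 37 °C and 824 to 857 CPM at 39 °C, with 4 of 6 tested lower and none higher (30.5% of all genes tested were lower). The 6 neuron markers summed to 62.9 to 67.8 CPM at 37 °C and 37.7 to 39.5 CPM at 39 °C. Of the 3 tested, 2 were lower and 0 higher, by the same rule and beside the same 30.5%. The part of the mesenchymal and neuron markers in the results below was not tested.

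Of the 10 members, 7 passed the filter of a mean of 1 count per library. The neuronal and astrocytic filament genes Nefl, Ina and Gfap did not. Nefl had 2 UMIs at 37 °C, from 2 libraries, and 2 at 39 °C, also from 2 libraries. Ina had 1 UMI at 37 °C and 4 at 39 °C. Gfap had 0 UMIs at 37 °C, which allows up to 0.0268 CPM (3 counts over the 4 libraries), and 3 at 39 °C, a pooled level of 0.0305 CPM (95% exact Poisson interval 0.00630 to 0.0893, counting error only). The axonal and astrocytic subunits were therefore at or near the detection limit at both temperatures. The fourth gene of this kind, Nefm, had 207 UMIs at 37 °C and 107 at 39 °C.

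The first comparison asked how the members differed between 39 °C and 37 °C over all cells, with UMIs summed per library and compared by the quasi-likelihood test of edgeR. At an adjusted p under 0.05, 5 of the 7 tested members were lower and 1 was higher at 39 °C. By this rule 62% of all 15810 genes tested passed, 30.5% lower and 31.5% higher, so passing it was common. A stricter rule asked for an adjusted p below 0.01 with a log2 difference larger than 1.5 either way. Nes and Lmnb1 were called lower by it, as were 3.62% of all genes, while 2.21% were called higher (5.83% in all). The median log2 fold change of the 7 was -0.76, and that of all tested genes 0.02. Libraries of the temperatures did not overlap for 6 of the 7, as for 56.7% of all genes. The sources call the libraries replicates of each culture condition without saying whether each was grown separately. The p-values therefore refer to the spread between these libraries, which edgeR estimates for each gene with information shared over all genes tested.

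Among the cytoplasmic filaments, Nes was at 446, 448, 427 and 547 CPM in the 37 °C libraries and at 102.5, 111, 116 and 104 CPM in the 39 °C libraries. All 39 °C libraries lay far below all 37 °C libraries. The means were 467 ± 54.2 and 108 ± 6.36 CPM. Nes was thus 4.31-fold lower at 39 °C (log2 fold change -2.11, SE 0.07, adjusted p = 5.8e-15). Nestin is a marker of neural stem cells and the only cytoplasmic member to pass the stricter rule.

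Vim, its polymerization partner, was at 5226, 5431, 5412 and 5515 CPM at 37 °C and at 5471, 4997, 5167 and 5030 CPM at 39 °C. The groups overlapped, since replicate 1 at 39 °C was above 3 of the 37 °C libraries. The log2 fold change was -0.06 (95% interval -0.18 to 0.05, adjusted p = 0.372). The sharp fall in nestin transcripts was thus measured beside a vimentin difference whose interval lay between 0.18 lower and 0.05 higher on the log2 scale.

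Synm rose. It was at 78.8, 83.5, 80.7 and 73.0 CPM at 37 °C and at 177, 147, 161 and 171 CPM at 39 °C, with no overlap. The log2 fold change was 1.05 (SE 0.06, adjusted p = 8.86e-12), and synemin was the only tested member higher at 39 °C. Nefm was at 1.44 to 2.29 CPM at 37 °C and at 0.795 to 1.35 CPM at 39 °C, and these ranges did not overlap. Its log2 fold change of -0.76 (SE 0.20, adjusted p = 0.0023) rested on 21 to 59 UMIs per library, and with each cell thinned to 5000 UMIs it was -0.49 (adjusted p = 0.186). At a mitochondrial limit of 10% it was -1.16.

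Among the lamins, Lmnb1 fell most. Its level was 94.7, 99.4, 102.9 and 109 CPM at 37 °C and 24.3, 27.1, 27.6 and 26.5 CPM at 39 °C, with means of 102 ± 6.19 and 26.4 ± 1.47 CPM. The log2 fold change was -1.94 (SE 0.06, adjusted p = 4.85e-16), or 3.84-fold lower. The other B-type lamin, Lmnb2, was at 14.3, 14.6, 15.2 and 17.2 CPM at 37 °C and at 7.72, 7.38, 7.54 and 6.86 CPM at 39 °C. Its log2 fold change was -1.06 (SE 0.07, adjusted p = 2.97e-10). Both B-type lamins were thus lower in every 39 °C library than in any 37 °C library.

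Lmna, which encodes the A-type lamins, was at 784, 811, 852 and 907 CPM at 37 °C and at 603, 652, 636 and 631 CPM at 39 °C. It also fell without overlap, by 0.41 on the log2 scale (SE 0.06, adjusted p = 2.38e-06), or 1.33-fold. The differences of the 3 lamins were not tested against each other.

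**Figure D1:**
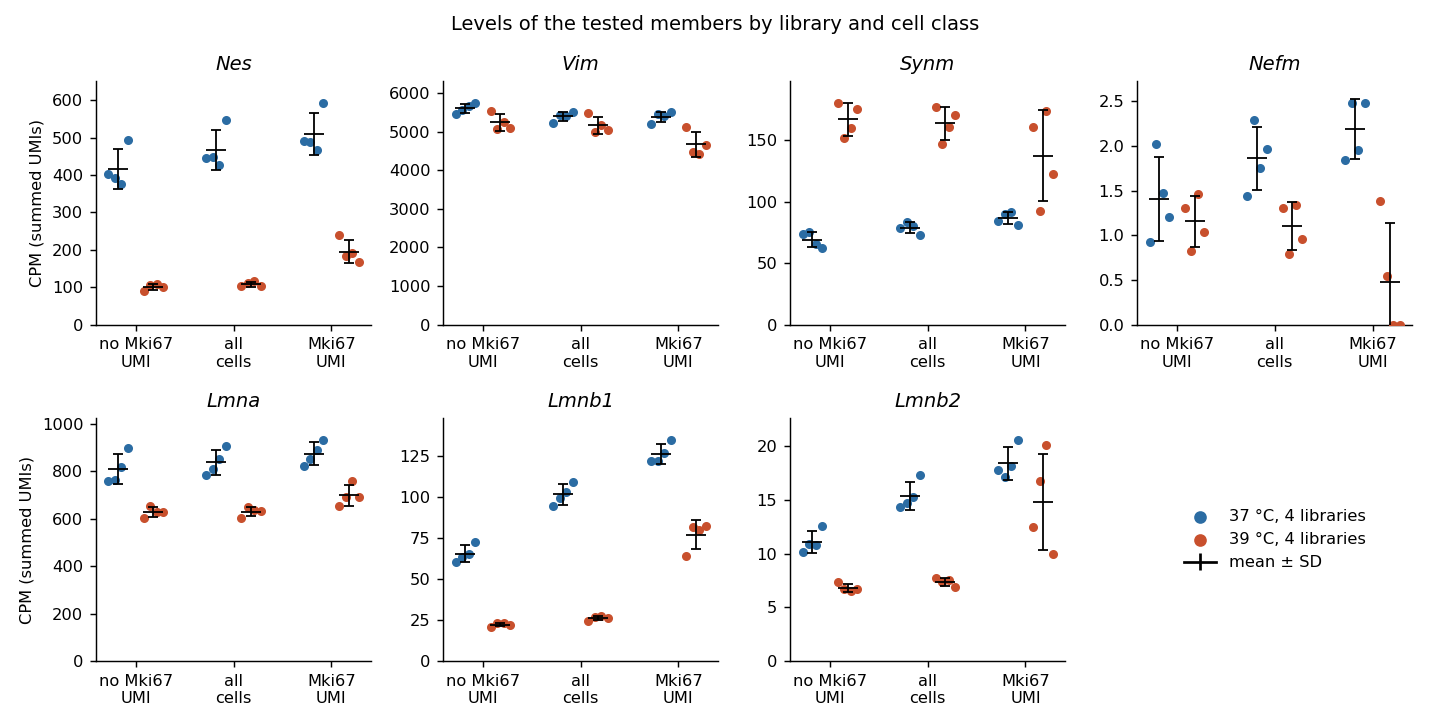
CPM (linear axes from 0) of the 7 tested members in each library, in cells without Mki67 UMIs, all cells, and cells with Mki67 UMIs, at 37 °C (blue) and 39 °C (orange), with mean ± SD of 4 libraries. In all cells, Nes and Lmnb1 sit far lower at 39 °C (108 against 467 CPM and 26.4 against 102 CPM), Synm sits higher (164 against 79.0 CPM), and Vim overlaps.

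The share of cells with Mki67 UMIs differed strongly between temperatures, so each class was compared by itself. In cells without Mki67 UMIs, 4 of 7 members were lower and 1 was higher at an adjusted p under 0.05 (27.1% and 29.7% of 15040 genes, 56.8% in all), and Nes and Lmnb1 again passed the stricter rule (2.13% of genes lower and 1.91% higher, 4.04% in all). The temperature ranges did not overlap for 5 members (52% of genes). In cells with Mki67 UMIs, 5 were lower and 1 higher (18.6% and 14.9% of 14404 genes, 33.5% in all), of which Nefm alone passed the stricter rule (0.507% of genes lower and 1.03% higher, 1.54% in all). Ranges did not overlap for 6 members (35.4% of genes). At 39 °C this class held only 73 to 190 cells per library.

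Nes was lower at 39 °C in both classes. In cells without Mki67 UMIs it was at 376 to 495 CPM at 37 °C and at 91.0 to 110 CPM at 39 °C, a log2 fold change of -2.02 (SE 0.08, adjusted p = 6.63e-15). In cells with Mki67 UMIs it was at 490, 488, 467 and 592 CPM at 37 °C and at 240, 182, 191 and 167 CPM at 39 °C, a log2 fold change of -1.38 (SE 0.09, adjusted p = 1.09e-13). The fall was therefore present, and without overlap, in cells that carried the proliferation transcript at both temperatures.

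Lmnb1 differed more between the classes in its fitted fall, though it was not tested against Nes. In cells without Mki67 UMIs it was at 60.4, 63.2, 65.6 and 72.5 CPM at 37 °C and at 20.9, 23.2, 23.2 and 22.4 CPM at 39 °C, a log2 fold change of -1.53 (SE 0.06, adjusted p = 1.55e-14). That value was close to the limit of the stricter rule, and was under it without replicate 4 of 37 °C (-1.47) or replicate 1 of 39 °C (-1.4985). In cells with Mki67 UMIs it was at 122, 122, 127 and 135 CPM against 63.9, 82.0, 79.6 and 82.4 CPM, a log2 fold change of -0.69 (SE 0.08, adjusted p = 2.34e-08). In cells with at least 2 Mki67 UMIs it was -0.42 (adjusted p = 0.000263). A cell can lack an Mki67 UMI and still be dividing, so the negative class was also narrowed to cells without UMIs of Mki67 or Top2a, a topoisomerase of dividing cells. The log2 fold changes there were -1.36 for Lmnb1, also under the stricter rule, -1.89 for Nes and -0.42 for Lmnb2 (adjusted p = 0.0198).

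Lmnb2 fell in cells without Mki67 UMIs, from 10.1, 10.8, 10.8 and 12.6 CPM to 7.35, 6.73, 6.48 and 6.67 CPM, a log2 fold change of -0.70 (SE 0.10, adjusted p = 1.71e-06). In cells with them, 17.1 to 20.5 CPM stood against 9.95 to 20.02 CPM, and the ranges overlapped. The log2 fold change of -0.26 (95% interval -0.56 to 0.05, adjusted p = 0.217) did not pass, although it did without replicate 3 of 39 °C (-0.47, adjusted p = 0.0479). With thinned cells it was -0.02. The 39 °C values rested on 18 to 45 UMIs per library.

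Lmna was lower at 39 °C by similar amounts in both classes, at -0.35 (SE 0.06, adjusted p = 3.09e-05) without and -0.31 (SE 0.07, adjusted p = 0.000782) with Mki67 UMIs. Requiring at least 2 Mki67 UMIs ended the second call (-0.19, adjusted p = 0.0535). Synm rose in both, from 62.4 to 75.1 CPM up to 152 to 180 CPM without Mki67 UMIs (log2 fold change 1.28, SE 0.07, adjusted p = 4.35e-13). With them it rose from 81.3 to 91.4 CPM up to 92.8 to 174 CPM (0.68, SE 0.10, adjusted p = 3.46e-06), and the lowest 39 °C library was barely above the highest at 37 °C.

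Vim gave a log2 fold change of -0.09 (95% interval -0.21 to 0.03, adjusted p = 0.246) in cells without Mki67 UMIs, which passed under DESeq2 (-0.11, adjusted p = 0.0209). In cells with them it was -0.19 (SE 0.08, adjusted p = 0.0493). That call was lost in 13 of 21 alternatives, among them library totals as the scale (-0.10, adjusted p = 0.33) and leaving out replicate 2 (-0.18), 3 (-0.19) or 4 (-0.19) of 37 °C or replicate 2 (-0.17), 3 (-0.17) or 4 (-0.19) of 39 °C. Nefm did not pass in cells without Mki67 UMIs (-0.24, 95% interval -0.78 to 0.29, adjusted p = 0.467). In cells with them it had 149 UMIs at 37 °C and 3 at 39 °C, a ratio of 0.187 per UMI of the class (95% exact interval 0.0381 to 0.557, counting error only). The call there was lost with thinned cells (-5.36, adjusted p = 0.0622), where the class kept no Nefm UMI at 39 °C. It was also lost with at least 2 Mki67 UMIs (-1.58, adjusted p = 0.139), and without replicate 1 of 39 °C the value was -3.60.

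Weighting the 39 °C classes by their 37 °C shares of UMIs (62.4% with Mki67 UMIs) gives, as a description, the level at an equal class mixture. For Lmnb1 the log2 difference of pooled CPM between temperatures was -1.90 as observed and -0.77 at equal mixture. For Lmnb2 it was -1.03 and -0.29, for Nes -2.07 and -1.50, for Lmna -0.38 and -0.26, and for Synm 1.07 and 0.96. At the 39 °C class shares instead, the differences were -1.36 for Lmnb1, -0.63 for Lmnb2 and -1.93 for Nes. The size at an equal mixture thus depended, for the B-type lamins by over 1.5 times, on which mixture was taken.

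**Figure D2:**
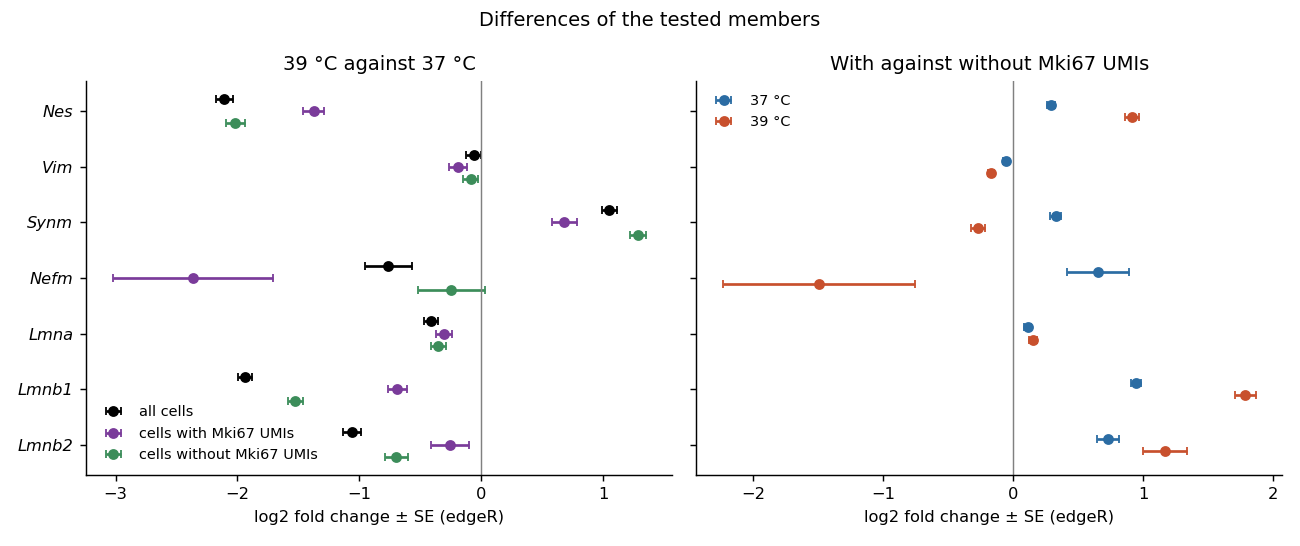
Fitted log2 fold changes ± SE of the 7 tested members, left for 39 °C against 37 °C in all cells and in each Mki67 class, right for cells with against without Mki67 UMIs at each temperature. Nes and Lmnb1 lie left of 0 and Synm right of 0 in all 3 temperature comparisons, and the class difference of Lmnb1 is 0.95 at 37 °C and 1.79 at 39 °C.

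The next comparison set cells with Mki67 UMIs against cells without them in the same library, from 16 sums with the library as a block. All 16 sums shared the estimate of the spread, which was therefore not made for each temperature alone. At 37 °C, 6 of 7 members were higher and 1 was lower in the positive class (19.8% and 15.3% of 14744 genes, 35% in all), and none passed the stricter rule (1.69% of genes higher and 0.142% lower, 1.83% in all). At 39 °C, 4 were higher and 2 lower (13.1% and 14.9% of genes, 28% in all), and Lmnb1 passed the stricter rule (2.01% of genes higher and 0.203% lower, 2.22% in all). The difference of these class effects between temperatures passed for 5 of 7 members, 2 of them higher and 3 lower (5.45% and 7.83% of genes, 13.3% in all).

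Lmnb1 was the member most raised in the positive class. The log2 difference was 0.95 (SE 0.04, adjusted p = 1.4e-57) at 37 °C and 1.79 (SE 0.08, adjusted p = 1.41e-51) at 39 °C, and the latter was larger by 0.84 (SE 0.08, adjusted p = 2.01e-16). In all 8 libraries the positive class was higher. Lmnb2 was higher by 0.73 (SE 0.08, adjusted p = 3.17e-14) and by 1.17 (SE 0.17, adjusted p = 9.21e-10), and at 37 °C by 1.13 against cells without Mki67 or Top2a UMIs. The difference between these was 0.44 (95% interval 0.08 to 0.79, not adjusted over genes) and did not pass (adjusted p = 0.0962). It passed without replicate 1 (0.53, adjusted p = 0.0435) or replicate 4 (0.59, adjusted p = 0.0308) of 39 °C. It was 0.20 without replicate 3 of 39 °C (adjusted p = 0.672) and 0.14 against cells without Mki67 or Top2a UMIs (adjusted p = 0.756).

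Lmna was higher in the positive class by 0.11 (SE 0.02, adjusted p = 3.89e-05) at 37 °C and by 0.16 (SE 0.03, adjusted p = 5.28e-06) at 39 °C. The class difference of the A-type lamin gene was thus small beside those of both B-type genes, though genes were not tested against each other. Without the library block, neither of its calls held (adjusted p = 0.208 and 0.0821). At 37 °C it was 0.03 with upper quartile scaling (adjusted p = 0.345) and 0.07 with library totals, and at 39 °C 0.26 with at least 2 Mki67 UMIs.

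Nes was higher in the positive class by 0.29 (SE 0.03, adjusted p = 1.19e-18) at 37 °C. Cells with Mki67 UMIs were deeper, and with all cells thinned to 5000 UMIs the difference was 0.07 (adjusted p = 0.12). Thinning also left out the shallower cells and put cells that kept no Mki67 UMI into the negative class (40.3 to 47.9% of 37 °C cells kept one), so depth and class membership changed together. Against cells without Mki67 or Top2a UMIs it was 0.63. At 39 °C it was 0.91 (SE 0.05, adjusted p = 1.18e-38), and the class effect there was larger by 0.62 (SE 0.06, adjusted p = 1.82e-18). Nestin transcripts were thus raised in the Mki67 class at 39 °C, while the smaller difference at 37 °C did not pass with thinned cells.

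Synm changed sides. It was higher in the positive class at 37 °C (0.33, SE 0.04, adjusted p = 6.27e-11) and lower at 39 °C (-0.27, SE 0.06, adjusted p = 3.94e-05), a difference of -0.60 (SE 0.07, adjusted p = 2.37e-12). The 39 °C values of the positive class were uneven, at 161, 92.8, 174 and 123 CPM against 180, 152, 160 and 176 CPM in the negative class, and replicate 3 went the other way. The 39 °C difference was -0.15 without replicate 2 (adjusted p = 0.0471) and -0.46 without replicate 3, and at 37 °C it was 0.18 against cells without Mki67 or Top2a UMIs. Neither class call held with DESeq2 (adjusted p = 0.0654 and 0.123).

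Vim was lower in the positive class by 0.06 (SE 0.02, adjusted p = 0.0157) at 37 °C and by 0.17 (SE 0.02, adjusted p = 2.41e-12) at 39 °C, on the log2 scale. The first call, which was -0.14 with upper quartile scaling, was lost without replicate 1 (-0.05, adjusted p = 0.091), 3 (-0.05, adjusted p = 0.1) or 4 (-0.06, adjusted p = 0.0639) of 37 °C. Their difference of -0.11 (SE 0.03, adjusted p = 0.00263) was lost under each other scaling, down to -0.02 with library totals, as well as with filterByExpr and DESeq2 (-0.06 in both). Nefm was higher by 0.65 (SE 0.24, adjusted p = 0.0211) at 37 °C and gave -1.49 (adjusted p = 0.126) at 39 °C on 3 UMIs. The first call was lost without replicate 1 (0.57, adjusted p = 0.108) or 4 (0.53, adjusted p = 0.151) of 37 °C, and the second passed without replicate 1 of 39 °C (-2.68, adjusted p = 0.039). The difference of its class effects was -2.15 (adjusted p = 0.036), a call lost in 12 of 21 alternatives, among them without replicate 1 (-2.06) or 4 (-2.02) of 37 °C and without replicate 3 (-1.46) or 4 (-1.80) of 39 °C.

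Cells thinned to 5000 UMIs were also grouped by their number of Mki67 UMIs, as a description. Lmnb1 was at 70.1 ± 7.38 CPM in 37 °C cells with 0 Mki67 UMIs, at 114 ± 8.10 with 1, at 132 ± 8.53 with 2 to 4 and at 182 ± 35.0 with 5 or more (SD, n = 4). At 39 °C it was at 23.0 ± 0.557, 61.6 ± 6.03, 111 ± 26.1 and 169 ± 59.2 CPM. The mean level went up with the number of Mki67 UMIs at both temperatures, and in the top group the temperatures differed by less than their SDs. Replicate 3 of 39 °C went down at the last step, from 127 CPM with 2 to 4 to 83.3 CPM with 5 or more. That top group held 38 cells at 39 °C, with as few as 4 in a library.

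Nes had no such grade at 37 °C, at 405 ± 56.5, 457 ± 55.2, 422 ± 61.3 and 360 ± 50.4 CPM. At 39 °C it was at 100 ± 5.30, 237 ± 102, 174 ± 65.4 and 193 ± 25.8 CPM. In each group of cells, including that with 5 or more Mki67 UMIs, all 37 °C libraries were above all 39 °C libraries. Lmna was at 818 ± 68.8 to 892 ± 26.1 CPM over the groups at 37 °C and rose in mean from 623 ± 19.6 to 893 ± 88.1 CPM at 39 °C.

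**Figure D3:**
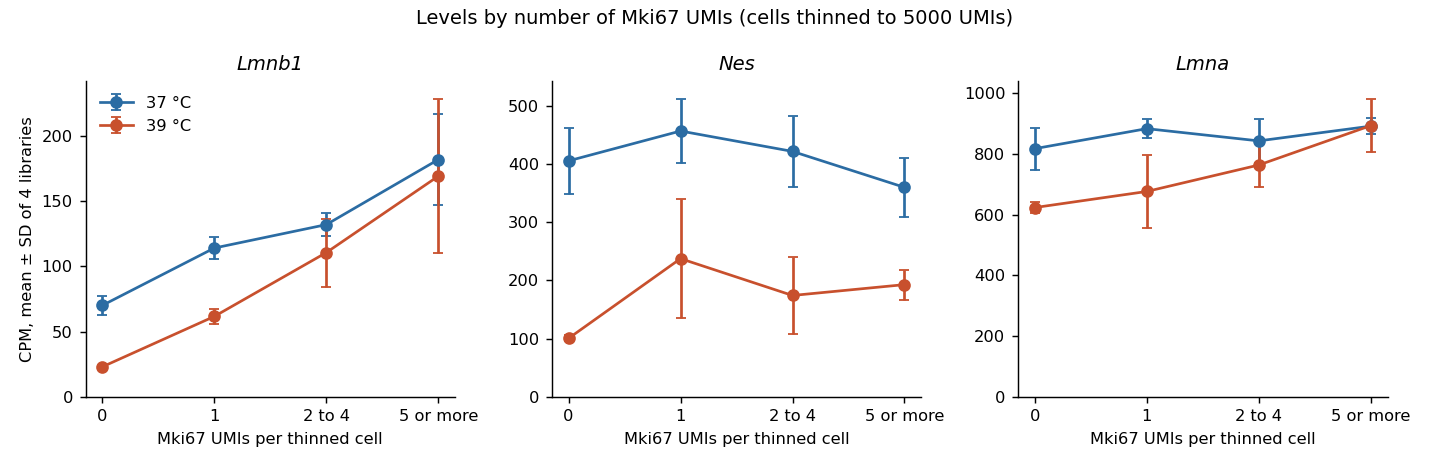
Mean CPM ± SD of 4 libraries for Lmnb1, Nes and Lmna in cells grouped by their number of Mki67 UMIs, with each cell thinned to 5000 UMIs, at 37 °C (blue) and 39 °C (orange). Lmnb1 rises along the axis at both temperatures (70.1 to 182 CPM and 23.0 to 169 CPM), while Nes at 39 °C stays below its 37 °C level in each group.

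At the level of single cells, the share of cells with at least 1 UMI was taken after thinning to 5000 UMIs, which left out 668 shallower cells at 37 °C and 1668 at 39 °C. The line holds no cell type known to lack these genes, so a background of free RNA was not measured. Nes was detected in 69.3 ± 4.40% of 37 °C cells and 31.2 ± 1.60% of 39 °C cells (80.8% and 46.4% without thinning). Lmnb1 was detected in 35.5 ± 2.22% and 11.3 ± 0.656%, and Lmnb2 in 6.98 ± 1.28% and 3.59 ± 0.212%. Without thinning these were 59.4% and 20.8% for Lmnb1 and 17.6% and 8.04% for Lmnb2. Lmna (96.4 ± 0.973% and 93.3 ± 0.455%) and Vim (over 99% in each library) were found in nearly all cells. Synm was detected in 20.5 ± 1.63% and 38.9 ± 1.30% (38.8% and 56.3% without thinning).

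Had the UMIs of a library been spread over its cells by a Poisson law of the same mean, Synm would have been detected in 32.6 ± 1.38% of 37 °C cells and 58.2 ± 3.18% of 39 °C cells, well above the 20.5% and 38.9% measured. The 5% of cells with the most Synm UMIs held 60.8 ± 4.24% of them at 37 °C and 51.0 ± 3.00% at 39 °C, and single thinned cells reached 94 UMIs. Its variance was 8.28 ± 1.25 times its mean at 37 °C and 12.4 ± 3.91 times at 39 °C. The synemin level of a library thus came largely from a minority of cells at both temperatures.

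Nes was also uneven, with 69.3% of cells detected where a Poisson spread gives 87.0 ± 3.11% at 37 °C, and 31.2% against 40.8 ± 0.827% at 39 °C. Its variance was 2.66 ± 0.179 and 2.22 ± 0.301 times its mean. Lmnb1 had a ratio of 1.22 ± 0.0692 at 37 °C and 1.16 ± 0.0647 at 39 °C, and Lmnb2 1.03 ± 0.0400 and 1.00 ± 0.0312. With at most 3 Lmnb2 UMIs in a thinned cell, a ratio near 1 says nothing of its spread, and ratios of genes at different means were not compared. Lmna stood at 1.54 ± 0.0881 and 1.35 ± 0.0182. Vim, at 4.23 ± 0.162 and 6.20 ± 0.614, had a wider spread at 39 °C although its mean did not pass the test.

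**Figure D4:**
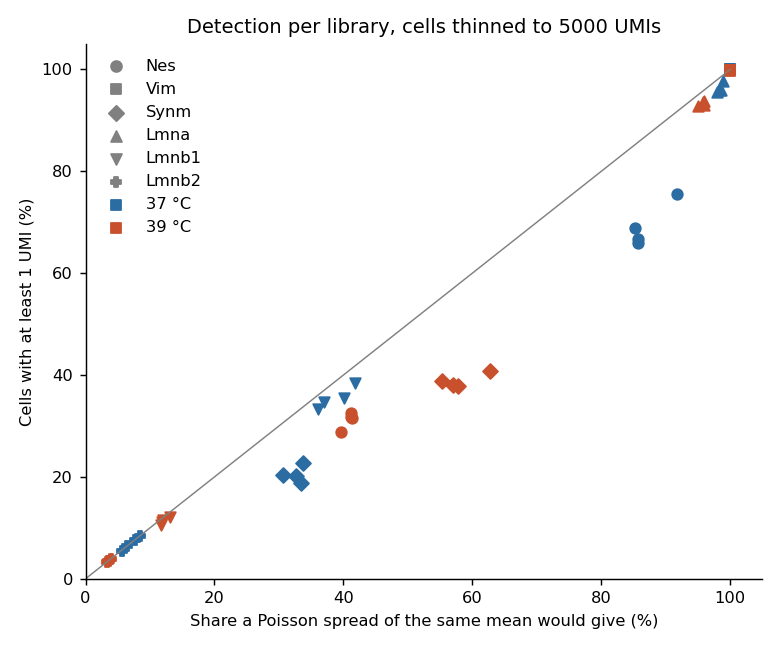
Percent of cells with at least 1 UMI in each library against the percent that a Poisson spread of the same mean UMIs would give, in cells thinned to 5000 UMIs, for 6 members at 37 °C (blue) and 39 °C (orange), with the line of equality. Synm and Nes lie below the line at both temperatures, and Lmnb1, Lmnb2 and Lmna lie close to it.

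Among 8397 genes, the likeness of a pattern was measured by the root mean square difference of centred log2(CPM + 1) over the 16 class sums. Those nearest to Nes were Eno3 (0.20), a muscle-type enolase, Fabp5 (0.22), a fatty acid binding protein, Spcs3 (0.27), a signal peptidase subunit, Bok (0.28), a BCL2 family member, and Col1a2 (0.29), a collagen chain. Those nearest to Lmnb1 were Gmnn (0.13), the replication licensing inhibitor geminin, Tyms (0.14), thymidylate synthase, Anp32e (0.14), a histone chaperone, H2afz (0.16), the histone variant H2A.Z, and Hirip3 (0.19). The median gene lay at 0.93 from Nes and at 0.91 from Lmnb1.

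Related genes were described by lists. Of 15 other intermediate filament genes, 14 were tested, 6 were lower and 2 higher at 39 °C at an adjusted p under 0.05 (30.5% and 31.5% of all genes), and their median log2 fold change was -0.53, against 0.02 over all genes. Of those with at least 10 CPM at either temperature, Krt19, an epithelial keratin, fell from 92.1 ± 6.69 to 19.8 ± 1.08 CPM (log2 fold change -2.22, SE 0.07), and Krt80 from 12.3 ± 2.13 to 2.40 ± 0.272 CPM (-2.36). Krt7 rose from 29.1 ± 1.30 to 49.7 ± 2.95 CPM (0.77). Krt19 was lower in cells with (-1.77) and without (-2.25) Mki67 UMIs. Epithelial markers as a whole were near 0, with summed levels of 0.310 to 0.811 CPM at 37 °C and 0 to 0.175 CPM at 39 °C.

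Cytolinkers, large proteins that tie intermediate filaments to junctions and other filaments, were described next. Of 8 tested, 5 were higher and 1 lower, with a median of 0.33, where 31.5% of all genes were higher and 30.5% lower. Dsp, desmoplakin of the desmosome, rose from 11.3 ± 1.65 to 29.0 ± 1.16 CPM (1.36), and Evpl, envoplakin, from 5.93 ± 0.759 to 13.9 ± 1.43 CPM (1.21). Macf1, a linker of actin and microtubules, fell by 0.17 on the log2 scale. The plectin gene Plec was at 505 ± 39.7 and 515 ± 41.5 CPM (log2 fold change 0.03, adjusted p = 0.722). Dst (0.49) and Ppl (0.17) also rose.

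Of 15 partners of the lamina tested, 4 were higher and 5 lower, close to the 31.5% and 30.5% of all genes, with a median of -0.0045. Nrm, nurim, fell from 19.1 ± 1.80 to 7.01 ± 0.596 CPM (-1.46), Tmpo, which gives the lamina-associated polypeptides LAP2, from 202 ± 10.7 to 95.2 ± 3.23 CPM (-1.08), and Banf1, a chromatin-bridging factor, from 322 ± 25.8 to 152 ± 1.28 CPM (-1.08). The lamin B receptor gene Lbr, with -0.96, was also among the falls, as was Sun2 with -0.12 (adjusted p = 0.045). Among the rises, Emd, emerin, rose from 158 ± 7.51 to 207 ± 6.08 CPM (0.39), Sun1 by 0.31 and Syne1 by 0.31, members of the bridge from nucleus to cytoskeleton, and Lemd2 by 0.30.

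The partners that fell were higher in cells with Mki67 UMIs at both temperatures, as were Lmnb1 and Lmnb2, though Sun2 did not pass at 39 °C. At 37 °C the log2 class difference was 0.90 for Tmpo, 0.82 for Lbr, 0.46 for Nrm and 0.28 for Banf1, and at 39 °C it was 1.12, 1.04, 1.52 and 0.65, each past an adjusted p of 0.05. By this rule 19.8% of all genes at 37 °C and 13.1% at 39 °C were higher in that class. Of the partners that rose, Sun1 was also higher there in mean, at 35.1 against 31.1 CPM and 44.5 against 40.9 CPM. Emd was higher at 37 °C (167 against 149 CPM) and lower at 39 °C (189 against 209 CPM), and Syne1 was lower at both. In cells without Mki67 UMIs the log2 fold change between temperatures was -0.59 for Tmpo, -0.51 for Lbr, -1.34 for Nrm and -0.96 for Banf1, each past the test. Sun2 had class differences of 0.72 and 0.25 (adjusted p = 0.0536 at 39 °C), and was higher at 39 °C, by 0.34, in cells without Mki67 UMIs. Of the 5 genes that process prenylated lamins, 3 were lower and 1 higher (30.5% and 31.5% of all genes), with a median of -0.15. Rce1, the protease acting on farnesylated ends, fell from 36.9 ± 3.05 to 19.8 ± 1.83 CPM (-0.89), Fntb, a farnesyltransferase subunit, from 11.1 ± 0.912 to 6.58 ± 0.725 CPM (-0.75), and its partner Fnta fell by 0.15, which did not pass with thinned cells (adjusted p = 0.0579). Icmt, a methyltransferase, gave 0.20 (adjusted p = 0.0488), a call lost in 12 of 19 alternatives, among them without replicate 1 (0.16), 2 (0.17) or 4 (0.21) of 37 °C and without replicate 1 (0.15), 3 (0.22) or 4 (0.15) of 39 °C.

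**Figure D5:**
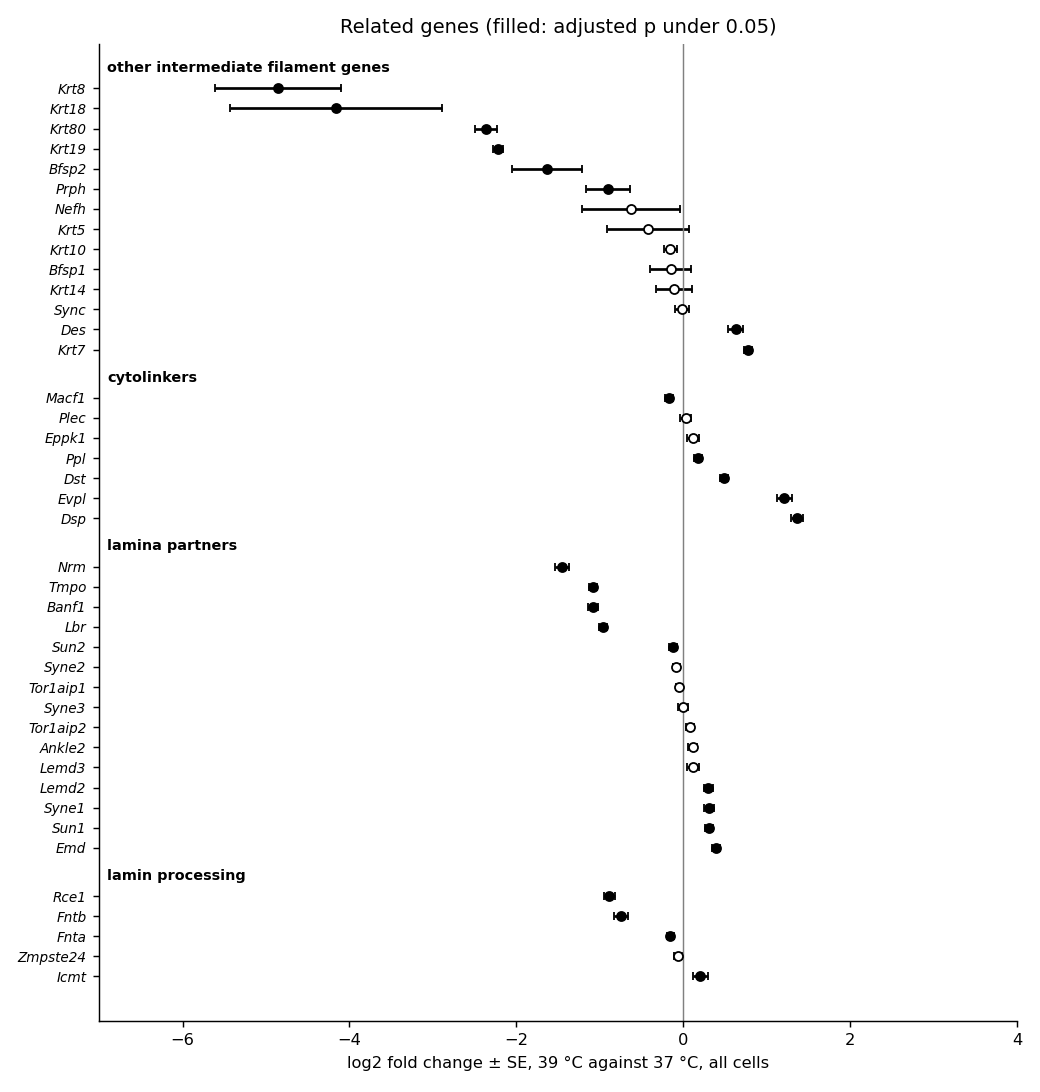
Fitted log2 fold change ± SE at 39 °C against 37 °C in all cells for the tested genes of the 4 lists, apart from a gene not reported here, filled where the adjusted p was under 0.05. The cytolinkers Dsp and Evpl lie at 1.36 and 1.21, the lamina partners Nrm, Tmpo and Banf1 at -1.46, -1.08 and -1.08, and Krt8 and Krt18, far left, had 49 and 9 UMIs in all.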

How the data were processed

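Trypsinized SN4741 cells were captured with the Chromium 3' V3 kit, and reads were aligned by the authors to mm10 with Cell Ranger 3.0.1, per the labels and the methods. The deposited matrices hold raw UMI counts per gene and cell, with no normalization. Such counts come from transcript ends and are not corrected for length, so levels were not compared between genes. The limits of the study were applied to cells, which removed those above 15% mitochondrial UMIs (334), above 6000 genes (440) or below 200 genes (29), and no doublet caller was run. Libraries of a temperature varied more than counting alone allows (chi-square over its degrees of freedom, 2.74 to 20.2), and pairs of libraries shared at most 5 barcodes. At 39 °C, pairs with replicate 1 gave 14.3 to 20.2 and the other pairs 2.74 to 5.96. That library was also the deepest, with a median of 16665 UMIs per cell against 6676 to 9886 in the other 39 °C libraries.

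Counts were summed per library, or per library and class (cells with or without an Mki67 UMI, Mki67 itself being left out of these fits). Genes averaging 1 count or more per sum were tested with edgeR 4.0.16 (R 4.3.3; TMM factors, glmQLFit, glmQLFTest), and p-values were adjusted over all genes tested by Benjamini-Hochberg. Standard errors were taken from the log2 fold change and the F statistic (their quotient, with F under a root). CPM use totals scaled by TMM factors. On simulated data the temperature fit recovered 200 of 200 genes changed by 2.5 on the log2 scale with 1 false call among 15614 genes. The changed genes were drawn from those with higher counts, and 1 spread was set for all genes. Recovery of smaller changes, at lower counts or with the spread of the real libraries was therefore not measured. Thinning drew 5000 UMIs per cell (Python 3.11.15), and classes were set again from the UMIs drawn. Intervals are 95%. Those of log2 fold changes use the standard error and a normal law, without adjustment for the number of genes tested. A zero count was taken to allow up to 3. Positions come from GENCODE M21 (10 of 10 members matched by identifier) and promoter windows from RefSeq (7 of 10 members matched).

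The members and lists were chosen with earlier results of these data known. All members are named, with, of each list, the 3 largest rises and falls past an adjusted p of 0.05 at 10 CPM or more, and the 5 genes nearest in pattern to Nes and to Lmnb1. A gene that this rule also names is not reported here. Plec, Dst, Ppl, Lbr, Sun2, Lemd2, Krt8 and Krt18 were named after their values were seen. Alternatives were other scalings, filters on low counts and cells, DESeq2 1.42.0, blocks, thinning, class definitions, and each library left out.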

Additional observations from a re-analysis of the deposited data

Results flagged for a closer look

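Among 42 groups of 4 libraries looked at (7 members, in all cells and in both Mki67 classes, at each temperature), 1 had a library far from its others, and chance flags about 1 in 20 such groups. Lmnb1 in cells with Mki67 UMIs was at 63.9 CPM in replicate 1 of 39 °C, while the others were at 79.6 to 82.4 CPM. That library held 985 kept cells and 73 cells with Mki67 UMIs.

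The effect of the Mki67 class differed between temperatures for 5 members in the test of the difference itself (edgeR). On the log2 scale, 39 °C minus 37 °C, the values were 0.62 for Nes, 0.84 for Lmnb1, -0.60 for Synm, -0.11 for Vim (adjusted p = 0.00263) and -2.15 for Nefm (adjusted p = 0.036). Of these, Nefm rested on 3 UMIs in the positive class at 39 °C.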

How the results depend on the processing

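Counts of genes over the whole table stayed within 1.5 times, with these exceptions: 397 genes called between temperatures in cells without Mki67 UMIs with filterByExpr (608 otherwise), 125 in cells with Mki67 UMIs with thinned cells (222), and 1265 with DESeq2, 926 without the library block and 981 with thinned cells for the difference of class effects (1957). Leaving out each library gave 863 to 957 (all cells), 191 to 239 and 505 to 594 (with and without Mki67 UMIs), 249 to 273 and 282 to 326 (class at 37 °C and 39 °C) and 1548 to 1889 (difference). Splits of the last moved with scaling, with 803 of 1957 higher with TMM factors and 1347 of 1875 with library totals (1043 of 1793 with DESeq2 size factors, 1180 of 1800 with upper quartiles). Of the members, the difference of class effects for Lmna ran from -0.00124 (without replicate 3 of 39 °C) to 0.0714 as libraries were left out, against 0.04 with all, and passed with upper quartile scaling, library totals and at least 2 Mki67 UMIs. Nes, Synm and Lmnb1 kept their direction between temperatures and an adjusted p under 0.05 in each alternative run in all 3 cell sets. With the replicate block the calls were 878, 221 and 586, and same-numbered libraries correlated at -0.12, -0.12, -0.09 and 0.29, with 1 of 4 numbers best with itself. So few values cannot show whether same-numbered libraries were handled together, and the sources do not say. Of 20 detection shares, 16 moved by over 1 SD without thinning. Depth limits Nefl, Ina, Gfap and Nefm, and every value of cells with Mki67 UMIs at 39 °C.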
